A study of Mus musculus with 6 samples.

Results

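The 10 genes described here encode the activator protein 1 (AP-1) factors Fos, Fosb, Fosl1, Fosl2, Jun, Junb and Jund, their dimer partner Atf3, and the immediate early factors Egr1 and Myc. They were taken by name from the deposited tables. All 10 were among the 15454 rows of the gene count table and were also found in the deposited FPKM table (fragment counts scaled to transcript length and library size), and all 10 passed the low-count filter that left 12411 genes for testing.

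Livers came from male wild-type C57BL/6 mice aged 8 to 10 weeks after warm ischemia and reperfusion of 75% of the liver. They were taken at the end of a reperfusion that lasted hours, so the first minutes of the response were not sampled. Per the study, the sequenced Rk2 livers were those of its higher dose. The I/R group had received vehicle and the I/R+Rk2 group had received ginsenoside Rk2, a saponin of processed ginseng, in the same vehicle, 2 days before surgery and again at the start of reperfusion. Each group held 3 libraries, each made from 250 ng of liver RNA. The labels do not state that the libraries of a group came from separate mice, so p-values measure the spread between these samples. No sham-operated liver was analysed here, so every change below is that of I/R+Rk2 relative to I/R and not relative to an uninjured liver.

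AP-1 is a family of dimers of basic leucine zipper (bZIP) proteins of the FOS, JUN and ATF families. JUN proteins can pair with each other or with FOS proteins, whereas FOS proteins need a JUN partner to bind DNA. Many of these genes are immediate early genes, transcribed within minutes of a stimulus without new protein synthesis, and in the liver they are well known for their response to injury, partial hepatectomy and inflammatory signals. Egr1 encodes a zinc finger factor and Myc a basic helix-loop-helix leucine zipper factor that binds DNA with MAX.

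The RefSeq promoter table (build GRCm38.p6) held a window for 7 of the 10 genes, Fos, Fosb, Fosl2, Jun, Junb, Jund and Atf3. The stretches upstream of the start of Fos, Jun and Junb are shown because signalling to these genes acts through short elements close to the start site, and because none of these 3 stretches overlaps an annotated exon. Each holds 150 bases, written 5′ to 3′ on the gene's strand, and capitals mark matches to the core of the cyclic AMP response element (TGACG), to a variant of the AP-1 site (TGACATCA) or to TATAA. The stretches lie at chr12:85473740-85473889 (plus strand) for Fos, chr4:95052223-95052372 (minus strand) for Jun and chr8:84978749-84978898 (minus strand) for Junb.
Fos: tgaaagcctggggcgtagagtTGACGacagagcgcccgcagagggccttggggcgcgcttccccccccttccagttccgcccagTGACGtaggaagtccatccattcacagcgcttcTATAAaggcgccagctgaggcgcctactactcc
Jun: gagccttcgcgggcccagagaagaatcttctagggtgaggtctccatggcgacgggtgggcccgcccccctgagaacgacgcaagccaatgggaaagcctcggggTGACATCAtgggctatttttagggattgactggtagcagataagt
Junb: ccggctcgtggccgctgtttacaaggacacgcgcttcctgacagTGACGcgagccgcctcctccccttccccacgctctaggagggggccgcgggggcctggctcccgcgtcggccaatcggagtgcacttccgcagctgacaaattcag

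In the Fos stretch TGACG occurred at -129 to -125 and at -66 to -62 and TATAA at -33 to -29, counted back from the base before the start. TGACATCA occurred in the Jun stretch at -45 to -38, and TGACG occurred in the Junb stretch at -106 to -102. Over all 32851 promoter windows of 300 bases, read on both strands, TGACG was present in 20.8%, TGACATCA in 3.62% and TATAA in 24.9%. These 3 motifs were chosen after the sequences had been seen, and TGACG also lies inside the full response element. Of the 7 windows, 4 held TGACG (Fos, Fosb, Junb and Atf3), 1 held TGACATCA (Jun) and 2 held TATAA (Fos and Junb). The TATAA of Junb began at the start base itself (0 to 4), outside the stretch shown, and so was not upstream of the start. The full AP-1 site (TGACTCA, read as TGAGTCA on the other strand), the full response element (TGACGTCA), the E-box (CACGTG) and the CArG box matched none of the 7, against 5.2%, 1.79%, 7.15% and 1.63% of all windows. The RefSeq starts are not always the GENCODE gene starts given below. The 150 bases upstream of the Jund start lie at 8:70697589-70697738, whereas its GENCODE gene begins at 70698949. Those of Junb lie at 8:84978749-84978898, whereas its GENCODE gene, on the minus strand, begins at 84978718. Those of Fosb (7:19310046-19310195) reach into its GENCODE gene, which begins at 19310051 on the minus strand. Those of Fosl2 (5:32136322-32136471) lie wholly in an annotated exon. Those of Atf3 (1:191183334-191183483) lie inside its GENCODE gene. For these genes the matches and positions above refer to the RefSeq start and not to the GENCODE gene start. A match or its absence describes these letters in this window and says nothing of binding.

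The factors Fosl1, Fosl2, Junb and Myc passed the test, and all were lower in I/R+Rk2 (edgeR quasi-likelihood test, adjusted p below 0.05). These 4 of 10 stand beside 43.9% of all 12411 genes past the same limit, so the share of factors called was close to that of the whole transcriptome. By direction, 4 of 10 were called lower, against 23.7% of all genes, and 0 of 10 higher, against 20.3%. With a change over 2-fold as well there was 1, Fosl1, which was lower, against 14.6% of all genes in either direction, 11.4% lower and 3.17% higher. Before any test, 7 of 10 had a log2 fold change below 0, against 50.4% of all genes, and the median was -0.21 over the 10 factors and -0.0076 over all genes. The 2 groups did not overlap for 5 of the 10, against 57.4% of all genes, in CPM (counts scaled to a common TMM-adjusted library size of 1000000). Of these, Fosl1, Fosl2, Junb and Myc were the lower ones, against 30.3% of all genes, and Egr1 was the higher one.

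**Figure D1:**
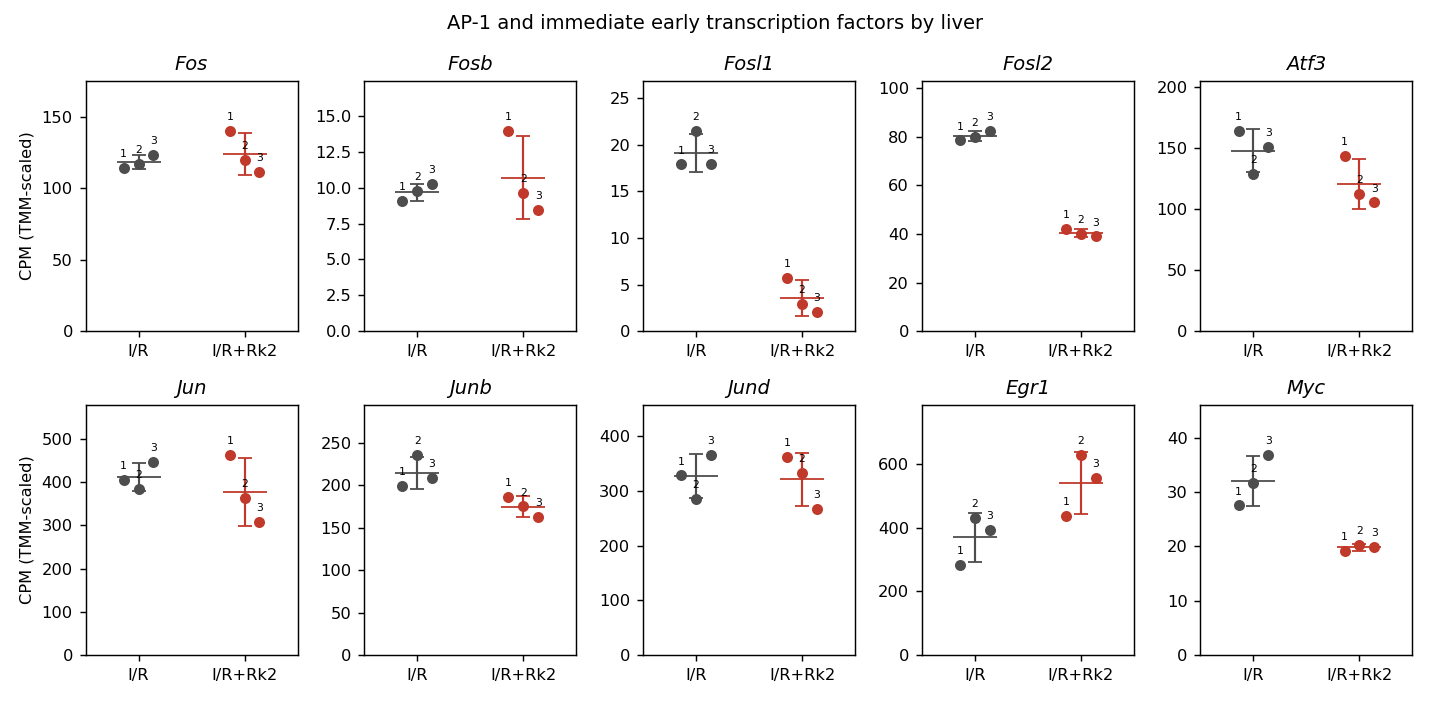
CPM of each factor on a linear axis from 0, with 1 point per liver (numbered 1 to 3), the group mean as a bar and the SD as the error bar. The I/R and I/R+Rk2 livers lay apart for Fosl1 (17.9 to 21.5 against 2.03 to 5.72), Fosl2, Junb, Myc and, narrowly, Egr1, and overlapped for Fos, Fosb, Jun, Jund and Atf3.

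Fos and Fosb, the FOS proteins with a strong transactivation domain, did not pass the test. Fos (12:85473890-85477273, plus strand, GENCODE M21 on GRCm38) read 114, 117 and 124 CPM with vehicle and 140, 120 and 112 CPM with Rk2. The means were 118 ± 4.75 and 124 ± 14.7 CPM (SD, n = 3), and the I/R+Rk2 livers lay on both sides of the I/R livers. The log2 fold change was 0.066 with a 95% interval of -0.18 to 0.31 (edgeR adjusted p = 0.628), and its sign turned under 5 of 17 alternative settings. The interval leaves out a change of 1.5-fold in either direction for Fos, although it does not show equal levels. Fosb (7:19302696-19310051, minus strand) read 9.07, 9.80 and 10.2 CPM in I/R. In I/R+Rk2 it read 13.95, 9.65 and 8.47 CPM, so 1 liver lay above, 1 within and 1 below the I/R range. Its log2 fold change was 0.14 with a 95% interval of -0.31 to 0.60 (edgeR adjusted p = 0.580).

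Fosl1 and Fosl2, which encode the FOS-related antigens FRA1 and FRA2, both fell. These proteins lack the strong transactivation domain of FOS and are typically made later than FOS after a stimulus. Fosl1 (19:5447547-5455946, plus strand) was covered by 343, 550 and 450 counts with vehicle and by 136, 100 and 33 counts with Rk2. As CPM these were 17.9, 21.5 and 17.9 against 5.72, 2.96 and 2.03, and every I/R+Rk2 liver was below every I/R liver. The mean dropped from 19.1 ± 2.05 to 3.57 ± 1.92 CPM. The fitted change was 5.29-fold lower, or -2.40 on the log2 scale (SE 0.33, 95% interval -3.19 to -1.62, edgeR adjusted p = 0.0019). Fosl1 thereby showed the largest change of the 10 factors, and it remained past the threshold in all 17 alternatives. Of the 2033 exon bases of Fosl1, 1163 are shared with exons of Ccdc85b on the opposite strand. The strand setting of the authors' counting is not given in the sources used here, so reads of the pair cannot be told apart. Ccdc85b was itself lower, at 5.79 ± 0.187 CPM in I/R and 3.75 ± 0.285 in I/R+Rk2 (log2 fold change -0.63, edgeR adjusted p = 0.0117), a change smaller than that of Fosl1.

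Fosl2 (5:32135801-32157842, plus strand) read 78.5, 80.1 and 82.4 CPM with vehicle and 42.1, 40.2 and 39.0 CPM with Rk2. The livers within a group were close together, with means of 80.3 ± 1.93 and 40.4 ± 1.55 CPM. The log2 fold change was -0.99 (SE 0.077, 95% interval -1.17 to -0.81), or 1.99-fold lower (edgeR adjusted p = 0.000332). Fosl2 passed in all 17 alternatives. Its exons span 9680 bases, and long genes were lower as a class in this comparison, with a median log2 fold change of 0.21 in the shortest of 4 equal classes of exon length and -0.21 in the longest. With that length trend removed the log2 fold change of Fosl2 was -0.72, and it still passed.

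The JUN genes, the obligatory partners of the FOS proteins, had far smaller differences than Fosl1 and Fosl2. Jun (4:95049034-95052222, minus strand, a single exon) read 406, 384 and 446 CPM with vehicle and 463, 363 and 307 CPM with Rk2. The I/R+Rk2 livers spread more widely than the I/R livers and overlapped them (412 ± 31.7 against 378 ± 79.1 CPM, log2 fold change -0.12, 95% interval -0.49 to 0.24, edgeR adjusted p = 0.545). Jund (8:70698949-70700616, plus strand), the JUN member that is generally present in resting cells, read 328, 285 and 366 CPM with vehicle and 362, 334 and 268 CPM with Rk2. Its groups overlapped almost completely, with a log2 fold change of -0.024 and a 95% interval of -0.36 to 0.31 (edgeR adjusted p = 0.904).

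Junb (8:84974484-84978718, minus strand), which encodes a weaker activator that can oppose JUN, was lower by a small margin. It read 199, 236 and 209 CPM with vehicle and 187, 175 and 163 CPM with Rk2, so the groups did not overlap. The means were 215 ± 19.1 and 175 ± 11.8 CPM, with a log2 fold change of -0.29 (standard error 0.10, 95% interval -0.53 to -0.064, edgeR adjusted p = 0.0453), or 1.23-fold lower. The call passed in only 7 of 17 alternatives and in 2 of the 6 among them that left out 1 library. Over the 17 the adjusted p of edgeR, DESeq2 or limma ran from 0.0126 to 0.135. Junb shares 173 exon bases with Prdx2 on the opposite strand, and Prdx2 was higher in I/R+Rk2 (65.2 ± 3.28 to 90.3 ± 6.96 CPM, or 0.47 on the log2 scale, edgeR adjusted p = 0.0064). Jun and Jund also share exon bases, 232 and 877, with the antisense transcripts Junos and Gm11175, for which no count was used here.

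Atf3, a stress-induced bZIP factor that pairs with JUN proteins, did not pass. It lies at 1:191170296-191218039 on the minus strand. Its CPM were 164, 129 and 151 in I/R and 144, 112 and 106 in I/R+Rk2. Of the I/R+Rk2 livers 1 lay inside the I/R range and 2 lay below it (148 ± 17.7 against 121 ± 20.4 CPM, log2 fold change -0.29, 95% interval -0.63 to 0.046, edgeR adjusted p = 0.138). When replicate 1 of I/R+Rk2 was left out, Atf3 stood at -0.45 on the log2 scale with an edgeR adjusted p of 0.0254, the only 1 of 17 alternatives in which Atf3 passed.

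Egr1 was the factor with the largest difference towards I/R+Rk2, but it missed the threshold. The I/R livers read 284, 432 and 393 CPM and the I/R+Rk2 livers 436, 629 and 557 CPM. In CPM the lowest I/R+Rk2 liver was just above the highest I/R liver, whereas in FPKM the groups overlapped (67.6, 92.3 and 83.4 against 89.1, 124 and 107). Mean CPM was 369 ± 76.7 in I/R and 541 ± 97.4 in I/R+Rk2, 1.46-fold apart (log2 fold change 0.55, standard error 0.19, 95% interval 0.099 to 0.999, edgeR adjusted p = 0.0521). The call was near the limit and passed in 6 of 17 alternatives, with an adjusted p of edgeR, DESeq2 or limma from 0.00827 to 0.160.

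Myc, a driver of ribosome production and growth, fell. The Myc gene (15:61985391-61990374, plus strand) read 27.5, 31.6 and 36.8 CPM in I/R. In I/R+Rk2 it read 19.2, 20.3 and 19.9 CPM, below every I/R liver and with little spread. The means were 32.0 ± 4.67 and 19.8 ± 0.579 CPM (log2 fold change -0.69, standard error 0.12, 95% interval -0.98 to -0.41, edgeR adjusted p = 0.00438), or 1.62-fold lower. Myc passed in all 17 alternatives, and the log2 fold change was -0.62 with the length trend removed.

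**Figure D2:**
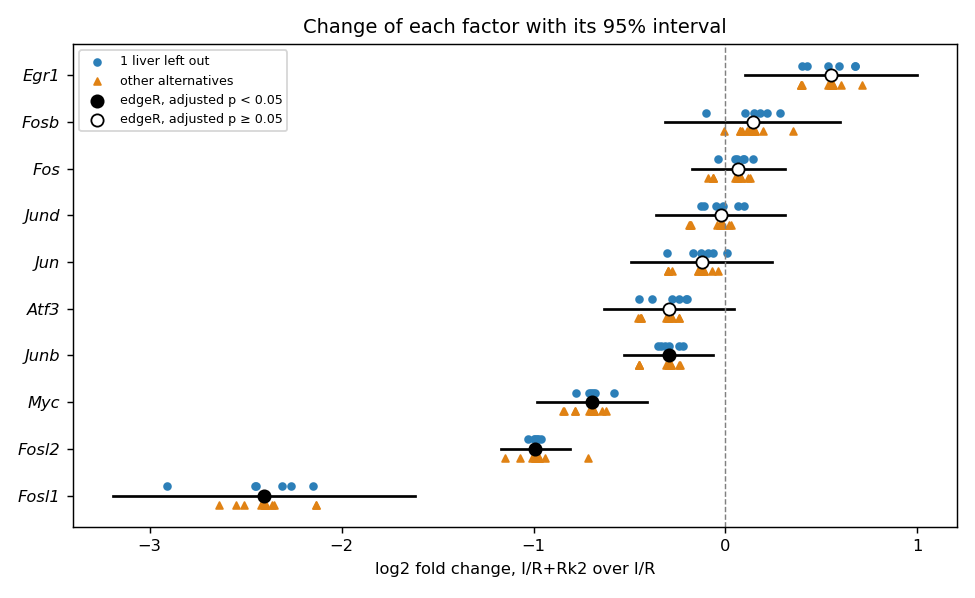
Log2 fold change of each factor, I/R+Rk2 over I/R, with its 95% interval (horizontal line); filled circles passed the edgeR test. Circles above the line leave out 1 liver and triangles below it are the other alternatives. The intervals of Fosl1 (-3.19 to -1.62), Fosl2 (-1.17 to -0.81) and Myc (-0.98 to -0.41) lay well below 0, whereas the alternatives of Fos, Fosb, Jun and Jund fell on both sides of it.

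Within the I/R+Rk2 group the bZIP factors varied together by liver. Replicate 1 had the highest CPM for all 8 bZIP factors and replicate 3 the lowest for all 8, whereas over all tested genes replicate 1 was highest for 38.5% and replicate 3 lowest for 39.5%. Egr1 and Myc departed from this, since replicate 1 had the lowest CPM of its group for both. In I/R the 8 bZIP factors shared no such order, and replicates 1, 2 and 3 were highest for 1, 2 and 5 of them. In I/R+Rk2 replicate 1 had the highest sum of neutrophil markers, 243 CPM against 133 and 104 CPM in replicates 2 and 3. It was also highest for Kupffer cell markers (74.8 against 61.5 and 64.8 CPM) and monocyte markers without Fn1 (13.1 against 7.11 and 7.80 CPM). It was lowest for hepatocyte markers (98133 against 121225 and 114057 CPM) and in between for endothelial markers. A link of these sums to the factors was not tested. Without replicate 1, the log2 fold changes of Fosl1 and Fosl2 were -2.91 and -1.03, and both passed.

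Levels were compared between genes only per length, in FPKM. In I/R the order from the top was Jund (194), Jun (128), Junb (118), Egr1 (81.1), Atf3 (75.3), Fos (59.2), Myc (17.1), Fosl2 (12.8), Fosl1 (11.1) and Fosb (2.66), as mean FPKM of 3 livers. The mean ± SD ranges of neighbours overlapped for Jun and Junb, for Egr1 and Atf3 and for Atf3 and Fos. These ranges ignore that both genes were read in the same library, and Atf3 was above Fos in every I/R library. In I/R+Rk2 the order was Jund (171), Egr1 (107), Jun (106), Junb (86.0), Fos (56.9), Atf3 (55.3), Myc (9.47), Fosl2 (6.06), Fosb (2.91) and Fosl1 (1.87). Neighbours overlapped there for Egr1 and Jun, Jun and Junb, Fos and Atf3, and Fosb and Fosl1, although Jun was above Junb in every I/R+Rk2 library. JUN transcripts therefore outnumbered FOS transcripts per length in both groups. Fosl1 was above Fosb in every I/R library and below it in every I/R+Rk2 library. The I/R+Rk2 values were 3.05, 1.53 and 1.02 FPKM for Fosl1 against 3.85, 2.79 and 2.11 for Fosb.

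The make-up of the FOS family differed between the groups while the balance of FOS and JUN did not separate them. Fosl1 and Fosl2 together supplied 27.8%, 29.0% and 26.8% of the FPKM of the 4 FOS genes with vehicle and 11.9%, 11.3% and 11.8% with Rk2. The share of Fos itself was 69.3%, 67.7% and 70.1% in I/R and 83.2%, 84.4% and 84.7% in I/R+Rk2. For each share the livers of a group lay within a few percentage points and the groups were far apart. The ratio of Fos to Fosl1 FPKM was 5.53, 4.71 and 5.92 in I/R and 21.4, 36.01 and 49.5 in I/R+Rk2. The ratio of the summed JUN genes to the summed FOS genes was 5.21, 4.82 and 5.36 in I/R and 5.43, 5.58 and 5.03 in I/R+Rk2, with overlap. Among all 8 bZIP factors the 3 JUN genes held 73.2% ± 0.985 of FPKM in I/R and 74.7% ± 1.07 in I/R+Rk2. The summed FPKM of the 8 was 643, 552 and 610 in I/R and 573, 480 and 406 in I/R+Rk2, which also overlapped. These shares are a description of RNA, without a test, and carry no statement on protein dimers.

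**Figure D3:**
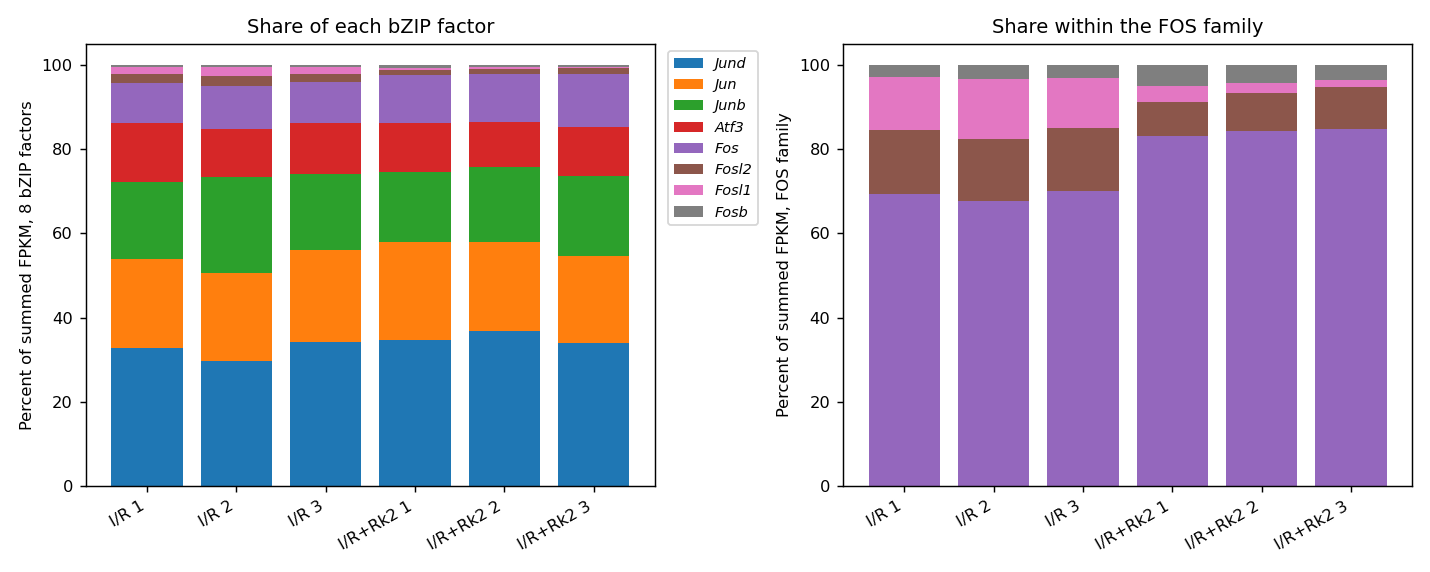
Stacked bars per liver, in percent of summed FPKM, for the 8 bZIP factors (left) and for the 4 FOS genes alone (right). On the left Jund, Jun and Junb fill about the same part of each bar, 73.2% ± 0.985 in I/R and 74.7% ± 1.07 in I/R+Rk2; on the right Fosl1 and Fosl2 shrink from 27.9% ± 1.14 to 11.7% ± 0.314.

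The genes whose pattern over the 6 libraries was closest to that of a factor were found by the root mean square difference of log2(CPM + 1), each gene centred on its own mean. Among the factors themselves Jun and Jund were closest, at 0.0998, followed by Fos and Fosb, at 0.105, and Fosl1 and Egr1 were farthest apart, at 1.47. Nearest to Fosl1 among all other tested genes were Ppl, which encodes periplakin, at 0.0578 and Mmp8, a neutrophil collagenase, at 0.0801. Ppl went from 71.8 ± 3.69 to 16.1 ± 6.81 CPM and Mmp8 from 53.5 ± 3.12 to 11.4 ± 4.54 CPM, and Mmp8 belongs to the neutrophil marker list used below. Nearest to Fosl2 were Trmt10c (0.0349), a mitochondrial tRNA methyltransferase gene, and Trib1 (0.0420), a pseudokinase gene that went from 222 ± 3.49 to 112 ± 3.33 CPM. The closest genes were Cdc34 (0.0216) and Adap2 (0.0268) for Fos, Sp5 (0.0226) and Rrbp1 (0.0591) for Fosb, and Tmem104 (0.0476) and Tle4 (0.0519) for Jun. They were Cdh3 (0.0300) and Tmem39b (0.0406) for Junb, Cdk2 (0.0462) and Nr3c2 (0.0501) for Jund, and Ephb4 (0.0512) and Arrb2 (0.0523) for Atf3. For Egr1 they were Acsm3 (0.0319) and Ppp1r9a (0.0625), and for Myc Cemip (0.0403), which had 0 counts in every I/R+Rk2 library, and Dcn (0.0549). Cemip and Sp5 averaged under 1 CPM in both groups, where the added 1 compresses differences, so Cemip lay close to Myc on this scale with 8, 14 and 23 counts in I/R against 0 in I/R+Rk2. Cdh3 (1.40 CPM in I/R and 0.961 in I/R+Rk2) and Ppp1r9a (1.89 and 3.06 CPM) were low enough to be compressed as well. The fitted log2 fold change of Cdh3 was -0.54, against -0.29 for Junb. Fosl1 itself, at 3.57 CPM in I/R+Rk2, was also low enough to be compressed. Its fitted log2 fold change was -2.40, against -2.15 for Ppl and -2.22 for Mmp8. On log2(FPKM + 1) the differences of the named pairs ran from 0.0379 to 0.340, with Cemip and Myc the farthest apart. With 6 libraries and 12411 genes tested some gene lies close to any pattern, so these names describe likeness only.

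Other bZIP genes that can pair with FOS or JUN, of the MAF, ATF, BATF and JDP groups, were lower where they passed. Of 11 such genes 9 were tested, 4 were called lower and 0 higher, and their median log2 fold change was -0.58. Over all genes 43.9% were called, 23.7% lower and 20.3% higher, so the share of partners called was close to that of all genes. Maff, which encodes a small MAF protein without a transactivation domain, went from 86.9 ± 12.1 to 42.9 ± 2.12 CPM (-1.02 on the log2 scale, edgeR adjusted p = 0.00102). Mafk, another small MAF, went from 44.6 ± 2.07 to 29.8 ± 2.77 CPM (-0.58, edgeR adjusted p = 0.0036), and Jdp2, a JUN-binding repressor, from 8.73 ± 1.36 to 4.18 ± 0.812 CPM (-1.05, edgeR adjusted p = 0.00499). Atf7 fell by 0.74 on the log2 scale (edgeR adjusted p = 0.0185) but passed in only 10 of 17 alternatives. Batf2 and Batf3 were too low to be tested.

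Other immediate early genes split by direction. Of 30 genes 27 were tested, 10 were called lower, 7 of them over 2-fold, and 2 were called higher, with a median log2 fold change of -0.15. Over all genes 23.7% were called lower, 11.4% lower by over 2-fold and 20.3% higher. Klf6, a zinc finger factor gene, dropped from 127 ± 17.2 to 44.9 ± 1.46 CPM (-1.50 on the log2 scale, edgeR adjusted p = 0.000327). Egr2, a relative of Egr1, dropped from 7.46 ± 0.769 to 2.41 ± 0.0741 CPM (-1.63, edgeR adjusted p = 0.000549). Ier3, an NF-kappaB-responsive survival gene, went from 66.9 ± 5.29 to 13.7 ± 4.62 CPM (-2.28, edgeR adjusted p = 0.000611) and Ctgf, a matricellular factor gene now also called Ccn2, from 28.7 ± 3.35 to 13.6 ± 0.171 CPM (-1.08, edgeR adjusted p = 0.000738). The 2 called higher, named here after their values were seen, were Klf10 (17.4 ± 2.07 to 38.1 ± 15.0 CPM, edgeR adjusted p = 0.0179) and Zfp36 (216 ± 28.8 to 318 ± 42.7 CPM, edgeR adjusted p = 0.0155). In FPKM the groups overlapped for both. There I/R+Rk2 replicate 3 lay within the I/R range, at 6.11 for Klf10 (I/R 4.72 to 6.40) and 83.8 for Zfp36 (I/R 70.3 to 85.8). Zfp36 encodes tristetraprolin, which destabilises AU-rich mRNAs. Thus the immediate early genes did not move as 1 block. The share called in either direction, 12 of 27, was close to the 43.9% of all genes. By direction, the share lower was above that of all genes and the share higher below it. Egr3, Egr4 and Nr4a2 were too low to be tested.

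Upstream regulators, which are kinases, SRF with its partner factors and CREB, showed mostly small changes. All 20 were tested, 9 were called lower, none of them over 2-fold, and 2 were called higher, 1 of them over 2-fold, with a median log2 fold change of -0.29. Of all genes 43.9% were called, with 23.7% lower and 20.3% higher, and 11.4% were lower and 3.17% higher by over 2-fold. Map2k4, a kinase that activates JNK, went from 63.5 ± 2.15 to 36.8 ± 0.812 CPM (-0.79 on the log2 scale, edgeR adjusted p = 0.000593). Map2k3, which activates p38, fell by 0.82 on the log2 scale (edgeR adjusted p = 0.00432) and Map3k1, upstream of JNK, by 0.88 (edgeR adjusted p = 0.00457). Mkl1, a coactivator of SRF now also called Mrtfa, went from 11.04 ± 0.853 to 5.57 ± 0.773 CPM (-0.98, edgeR adjusted p = 0.00235). Among genes named after their values were seen, Srf itself went from 26.9 ± 1.21 to 17.5 ± 2.69 CPM (-0.62, edgeR adjusted p = 0.00857), and the 3 ternary complex factors Elk1, Elk3 and Elk4 were also called lower, at -0.58, -0.53 and -0.38. The 2 called higher were Mapk3, which encodes ERK1 (0.36, edgeR adjusted p = 0.0199), and Creb1 (1.32, edgeR adjusted p = 0.0147). Creb1 had few counts, 1.77 ± 0.814 and 4.37 ± 0.562 CPM, and its mean FPKM went the other way, from 1.02 to 0.542.

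Genes known as AP-1 targets were lower almost throughout. All 20 were tested, and 17 were called lower, 16 of them over 2-fold, with 0 called higher. Over all genes 23.7% were called lower and 11.4% lower by over 2-fold. The median log2 fold change was -2.13. Across the alternatives between 12 and 18 passed, and the lowest of these counts came from stricter filters, under which fewer of the 20 were tested. Hmox1, the heme oxygenase gene, went from 293 ± 24.4 to 46.8 ± 6.12 CPM (-2.65 on the log2 scale, edgeR adjusted p = 0.000197). Plaur, the urokinase receptor gene, went from 40.1 ± 2.22 to 9.48 ± 3.04 CPM (-2.08, edgeR adjusted p = 0.00075), and Ccl2, a monocyte chemoattractant gene, was called lower as well (-2.73, edgeR adjusted p = 0.000296). The 3 that did not pass were Ccnd1 (log2 fold change 0.14, edgeR adjusted p = 0.594), Hbegf (-0.54, edgeR adjusted p = 0.0834) and Vegfa (-0.019, edgeR adjusted p = 0.875), named after their values were seen. The list was chosen with inflammatory results of these livers known and is not independent evidence of a direction.

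In the MYC network, which holds the MYC partner MAX and antagonists such as MXD1, calls were made in both directions. Of 10 network genes 9 were tested, 3 were called lower and 1 higher, with a median log2 fold change of -0.36. The share called was close to the 43.9% over all genes, of which 23.7% were lower and 20.3% higher. Mxd1, which encodes an antagonist of MYC, went from 93.7 ± 8.59 to 16.2 ± 6.92 CPM (-2.53 on the log2 scale, edgeR adjusted p = 0.000944), and Mga, a MAX-binding repressor gene, from 25.9 ± 5.35 to 7.92 ± 1.04 CPM (-1.71, edgeR adjusted p = 0.000834). Max itself, the obligatory partner, went from 24.7 ± 5.81 to 14.1 ± 1.12 CPM (-0.81, edgeR adjusted p = 0.0112). Mxd4, another antagonist, rose from 39.8 ± 0.715 to 60.1 ± 10.6 CPM (0.59, edgeR adjusted p = 0.0108). Genes for both MYC and its antagonist Mxd1 were therefore lower, while Mxd4 was higher, and Mxd3 was too low to be tested.

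MYC target genes, many of them genes of ribosome production, were lower where they passed. Of 20 tested 12 were called lower, 9 of them over 2-fold, and 0 higher, with a median log2 fold change of -0.93. The shares over all genes were 23.7% lower, 11.4% lower by over 2-fold and 20.3% higher. Nop56 and Nop58, subunits of the box C/D snoRNP, went from 33.5 ± 4.48 to 11.01 ± 1.18 CPM (-1.60 on the log2 scale, edgeR adjusted p = 0.000445) and from 35.9 ± 5.19 to 10.4 ± 1.67 CPM (-1.79, edgeR adjusted p = 0.000483). Gnl3, which encodes nucleostemin, went from 43.2 ± 1.96 to 19.1 ± 3.23 CPM (-1.18, edgeR adjusted p = 0.000904) and Ncl, nucleolin, from 156 ± 21.01 to 73.1 ± 7.03 CPM (-1.10, edgeR adjusted p = 0.00102). The fold changes of these 4 targets were larger in size than that of Myc, and the difference was not tested.

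**Figure D4:**
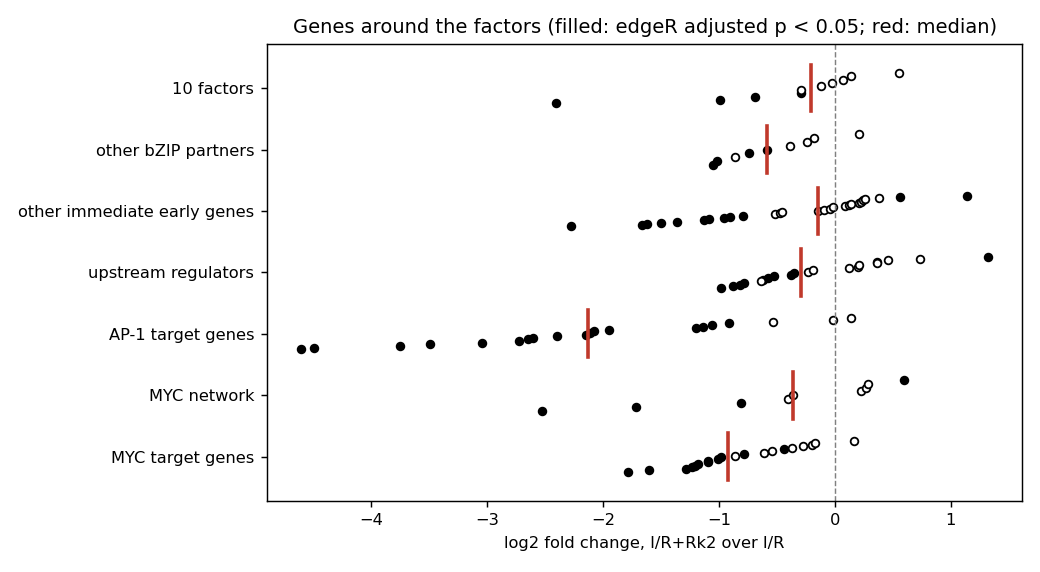
Log2 fold change of every tested gene in each list, I/R+Rk2 over I/R, 1 point per gene, filled where the edgeR test passed, with the list median as a red line. The medians were -0.21 for the 10 factors, -2.13 for AP-1 targets and -0.93 for MYC targets, beside -0.0076 for all genes tested.

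Markers of cell types that a whole liver holds moved with these results, and their part in the results was not tested. For the counts below, 43.9% of all genes were called, 23.7% lower and 20.3% higher. The 10 neutrophil markers summed to 567 to 688 CPM with vehicle and 104 to 243 with Rk2, with 9 called lower and none at 0 counts throughout a group. The 8 monocyte markers summed to 1614 to 1940 and 1123 to 1182 CPM, all 8 called lower, and most of that sum was Fn1, which hepatocytes also express. Without Fn1 the other 7 summed to 195 to 210.5 CPM with vehicle and 7.11 to 13.1 with Rk2. Ccr2 went from a mean of 14.2 to 0.658 CPM and Vcan from 26.7 to 0.576 CPM, and Ly6g was low in both groups (1.31 and 0.367 CPM). The 8 Kupffer cell markers summed to 74.1 to 115 and 61.5 to 74.8 CPM with 1 called lower, and the 8 endothelial markers to 202 to 208 and 160 to 201 CPM with 4 lower and 2 higher. Hepatocyte markers, the check of the liver label, were abundant in every library and summed to 64565 to 75526 CPM with vehicle and 98133 to 121225 CPM with Rk2, with 5 of 8 called higher and 1 lower. Alb, the albumin gene, had a mean of 49227 CPM with vehicle and 80119 with Rk2. In bulk liver RNA, fewer cells of a type and less RNA per cell cannot be told apart, for Fosl1, Fosl2, Junb and Myc as for the target lists.

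Total counts per library ran from 16809613 to 35618074, at which 3 counts stand for 0.0888 to 0.184 CPM, and every factor was above that level in every library. The 50 most abundant genes held 40.3% to 47.9% of counts. The smallest count behind any factor was the 33 of Fosl1 in I/R+Rk2 replicate 3, so its CPM there is the least precise.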

How the data were processed

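The 6 libraries of mouse liver RNA were used, 3 I/R and 3 I/R+Rk2, grouped by their labels. Per the submitters' processing notes the authors used FastQC 0.11.5, HISAT2 2.2.1 and StringTie 1.3.3 on mm10. The annotation, strand setting and counter are not given in the sources used here. The authors deposited whole-number counts per gene (15454 rows) and FPKM (21948 rows), and 0 other columns of per-library values were left unmapped.

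Counts were tested in R 4.3.3 with edgeR 4.0.16 (filterByExpr, TMM, quasi-likelihood F test, Benjamini-Hochberg adjustment over 12411 genes, threshold 0.05). The standard error is the absolute log2 fold change over the square root of F. CPM uses the TMM-scaled library size. FPKM served to compare levels between genes. Exon lengths and overlaps came from GENCODE M21, on GRCm38, the same build as mm10. Some 270 tested genes had no length there.

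The 10 genes, the gene lists and the tests were chosen with earlier results of these data known. Named were all 10 factors, at most 4 genes of smallest p per list, the 2 nearest genes by likeness for factors with a mean of at least 10 CPM (over all 6 libraries), and marker genes near 0 with Alb. Genes that share exon bases with a factor, Fn1 for its part of a marker sum, and genes too low to be tested were named as well. All other genes outside this rule were named with their values known.

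Alternatives were other scalings, library size alone, no filter, at least 10 counts in every library, DESeq2 1.42.0 (the study's tool), limma 3.58.1 on log2(FPKM + 1) with and without a minimum mean FPKM of 1 and on log2(FPKM + 0.1), a replicate block, and leaving out each library. Removal of the transcript length trend (loess, span 0.5) was added after the data were seen. The scripts were tested on simulated data. No pair of libraries agreed within sampling noise (chi-square per degree of freedom 31.4 to 74.8). The level that 3 counts stand for covers counting error only, whereas the 95% intervals come from the edgeR fit and include the spread between libraries. Protein sequences were not analysed here. Of the genes that the rule selects, 1 is not reported here, though it stayed in every test and count.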

Additional observations from a re-analysis of the deposited data

How the results depend on the processing

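Fosl1, Fosl2 and Myc kept their direction and stayed past the threshold in all 17 alternatives, and 6 of the 10 factors kept their sign in all. Junb lost its call (log2 fold change, adjusted p) with RLE scaling (-0.28, 0.0628), upper-quartile scaling (-0.24, 0.0864), no filter (-0.30, 0.0663), DESeq2 (-0.28, 0.0524), the replicate block (-0.29, 0.0674) and the length trend removed (-0.24, 0.0640), and leaving out 1 library gave -0.35 to -0.22. Egr1 passed with upper-quartile scaling (0.60, 0.0385), DESeq2 (0.56, 0.0183), the replicate block (0.56, 0.00827) and the length trend removed (0.71, 0.0230), and leaving out 1 library gave 0.40 to 0.68, with an edgeR adjusted p of 0.0477 when I/R replicate 2 was left out and of 0.0302 when I/R+Rk2 replicate 1 was. Leaving out 1 library gave -0.45 to -0.20 for Atf3. Signs turned for Fos with library size alone (-0.090), log2(FPKM + 1) with or without the filter (-0.064) and log2(FPKM + 0.1) (-0.065), for Fosb with library size alone (-0.0081), and for Jund with upper-quartile scaling (0.029) and the length trend removed (0.016). Leaving out 1 library gave -0.039 to 0.14 for Fos, -0.10 to 0.28 for Fosb, -0.31 to 0.0097 for Jun and -0.13 to 0.096 for Jund. The cause of these changes was not tested.

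The number of factors called was 4, between 3 and 6 in the alternatives (6 without I/R+Rk2 replicate 1), with 3 to 5 lower. Called higher was 1, Egr1, with upper-quartile scaling, DESeq2, the block and the length trend removed, and 0 to 1 when 1 library was left out. Over 2-fold there were 2 with library size alone, at least 10 counts in every library and log2(FPKM + 0.1), and 1 to 2 when 1 library was left out. Over all genes 3781 to 5672 were called. Of all genes 1813 were called over 2-fold, against 901 with log2(FPKM + 1) and 921 without its filter. Of the calls over all genes 53.9% were lower, against 72.5% with library size alone and 38.4% with the length trend removed, and the median log2 fold change of all genes was -0.17 and 0.15 under these. MYC targets called ranged from 10 to 18. In FPKM most of the named pairs lay farther apart, among them Junb with Cdh3 (0.170) and Tmem39b (0.177), Myc with Cemip (0.340), Jun with Tmem104 (0.250), Egr1 with Ppp1r9a (0.185), Fosb with Rrbp1 (0.155) and Fos with Cdc34 (0.0891).

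Replicate numbers did not pair the samples. The correlations of deviations for numbers 1 to 3 were -0.0313, 0.0477 and -0.0243. With the replicate block 4 factors were called, with Egr1 in and Junb out, and 4713 of all genes against 5454.

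The contrast has 3 libraries a group, no sham livers and no cell separation. Outlier tests need at least 4 samples a group and were not made.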
